A study of Homo sapiens with 8 samples.

Results

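Histone lysine methyltransferases and demethylases, the enzymes that place methyl groups on histone lysines (writers) and those that remove them (erasers), were followed in RD18, a human fusion-negative rhabdomyosarcoma cell line. The members were taken from a list of symbols drawn up by name and function, with earlier results of these data known. All 41 were found among the 22808 symbols of the count table. They comprise 24 writers and 17 erasers. Cells had been transfected for 60 h with the microRNAs miR-449a and miR-340-5p together, in 4 libraries, or had received lipofectamine alone as vehicle, in 4 libraries. All cells were of the 1 line and carried no other labelled treatment. No control RNA is named for the vehicle cells, and any effect of transfecting RNA as such therefore falls within the difference. Separate cultures are not stated for the replicates. The p-values accordingly reflect the scatter of these libraries alone, some of which may be technical.

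Writers carry the methyl group from S-adenosylmethionine to lysine, most of them through a SET domain. Erasers oxidise it away, the KDM1 enzymes with a flavin cofactor and the JmjC enzymes with iron and 2-oxoglutarate. Methylation of H3K4 and H3K36 marks active promoters, enhancers and transcribed gene bodies, while methylation of H3K9 and H3K27 marks silenced chromatin. In muscle precursors and their tumours these enzymes are known for setting which lineage genes can be read.

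Totals ran from 2842165 to 5569342 counts in miRNA libraries and from 2567737 to 4650213 in vehicle libraries. The members together took 0.43% to 0.442% of the counts in miRNA libraries and 0.272% to 0.294% in vehicle libraries. The lineage label was checked with muscle markers, among which MYOD1 averaged 108 ± 3.72 CPM in miRNA libraries and 204 ± 21.7 CPM in vehicle libraries (CPM, counts scaled to library size with TMM factors; SD, n = 4 each). The 7 muscle markers in the table summed to 802 to 829 CPM in miRNA libraries and 1144 to 1172 CPM in vehicle libraries. CHRNA1 made up most of that sum, at 624 ± 16.04 CPM in miRNA libraries and 814 ± 16.5 CPM in vehicle libraries. Of the 6 muscle markers tested, 5 fell and 1 rose. MYOG was near absent in miRNA libraries (0.646 ± 0.372 CPM, against 10.4 ± 1.89 CPM in vehicle libraries), and PAX7 fell 1.76-fold and DES 1.58-fold. PAX3 was the one that rose, 1.66-fold, with overlapping groups. MYF5 was not analysed here. The 4 leukocyte markers summed to at most 2.73 CPM in miRNA libraries and 2.92 CPM in vehicle libraries, and the 2 endothelial markers to at most 1.29 CPM in miRNA libraries and 0.674 CPM in vehicle libraries. The 2 epithelial markers summed to 1.02 to 2.57 CPM in miRNA libraries and to at most 0.418 CPM in vehicle libraries. The 3 fibroblast markers summed to 156 to 184 CPM in miRNA libraries and 102 to 115 CPM in vehicle libraries, with COL1A1 1.72-fold higher and LUM 23.3-fold lower, and the part of these genes in the members' changes was not tested. All 10 proliferation markers fell (median log2 fold change -3.41), with a sum of 129.7 to 232 CPM in miRNA libraries and 2969 to 3249 CPM in vehicle libraries.

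The transfected microRNAs are shown first because their seeds define the words that were looked for in the members' transcripts. A seed (bases 2 to 8, in capitals) pairs with a complementary word in the 3′ UTR of a target mRNA. Both mature sequences are from RefSeq (GRCh38.p14), and both genes lie on chromosome 5, minus strand.
hsa-miR-449a, chr5:55170586-55170607: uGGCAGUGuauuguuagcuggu
hsa-miR-340-5p, chr5:180015361-180015382: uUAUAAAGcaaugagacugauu
The transcript strand was searched for CACTGCC, the word of miR-449a, and for CTTTATA, the word of miR-340-5p. For each gene the longest annotated 3′ UTR lying wholly in the last exon was used (GENCODE 29, GRCh38). The miR-449a word was present in 6 of 41 members (14.6%), against 17.7% of the 10593 tested genes with such a 3′ UTR. The miR-340-5p word was present in 5 of 41 members (12.2%), against 19.6% of those genes. With these 7-base words the members' share was below that of tested genes for both microRNAs, but the order depends on the form of the word. With the 6-base form of miR-340-5p 68.3% of members and 55.7% of tested genes held it, and over all annotated 3′ UTRs the miR-449a shares were both 19.5%.

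Sites chosen from members that changed are given here with 15 bases before and 8 after the word, which is in capitals. The coordinates are those of the word itself. An 8th capital marks an adenosine after the word, which gives the longer form of a site.
KMT2D, miR-340-5p, chr12:49020439-49020445, minus strand: ctactaatttttgtgCTTTATAtattctat
SETD3, miR-340-5p, chr14:99412116-99412122, minus strand: ttttgaaatatcataCTTTATActagtata
SETD8, miR-340-5p, chr12:123408437-123408443, plus strand: gaaactgggttaattCTTTATAgaaatgtg
ASH1L, miR-340-5p, first of 2 sites, chr1:155337363-155337369, minus strand: cagaacctactggtaCTTTATAgcatttgc
ASH1L, miR-340-5p, second of 2 sites, chr1:155335804-155335810, minus strand: aaaattcaatgtttcCTTTATAgtgttaaa
SETDB2, miR-340-5p, chr13:49494577-49494583, plus strand: ccctaatgtcagtctCTTTATAAagggcct
KDM5B, miR-449a, chr1:202727147-202727153, minus strand: ctgctaatataaagcCACTGCCtttagaga
The miR-449a word was also present in KMT2D, KDM4C, KDM8, NSD1 and SETD1B, whose sites for it are not shown.

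Erasers rose or did not pass the test, and writers were split between rises and falls. Of the 16 erasers tested, 10 rose, 0 fell and 6 did not pass the threshold (edgeR quasi-likelihood test, adjusted p under 0.05). Of the 24 writers tested, 9 rose, 10 fell and 5 did not pass. Among all 12366 tested genes 67.3% were called, 33.4% as higher and 34% as lower, so a call is common in this comparison. The erasers' share of rises was 62.5%, while the writers' shares, 37.5% higher and 41.7% lower, lie near those of all genes. The median log2 fold change was 0.42 over the erasers and -0.12 over the writers, against 0.00 over all tested genes. Calls of at least 2-fold were found for the erasers KDM5B, KDM1B, KDM4A and KDM6B and for the writer SETDB2 as higher, and for the writer SUV39H1 as lower. The background of such calls is 12.5% higher and 13.1% lower. The groups did not overlap in 29 of the 40 tested members, 19 as higher and 10 as lower. Among all tested genes 58.9% showed no overlap, 29.2% as higher and 29.7% as lower. KDM4C, an eraser of H3K9 and H3K36 methylation, had 28 counts over the miRNA libraries and 24 over the vehicle libraries and did not reach the count minimum. Without that minimum its log2 fold change was -0.02 (SE 0.54, adjusted p = 0.98), too imprecise to place it. In these bulk samples a change in the make-up of the culture and a change in RNA per cell cannot be told apart.

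**Figure D1:**
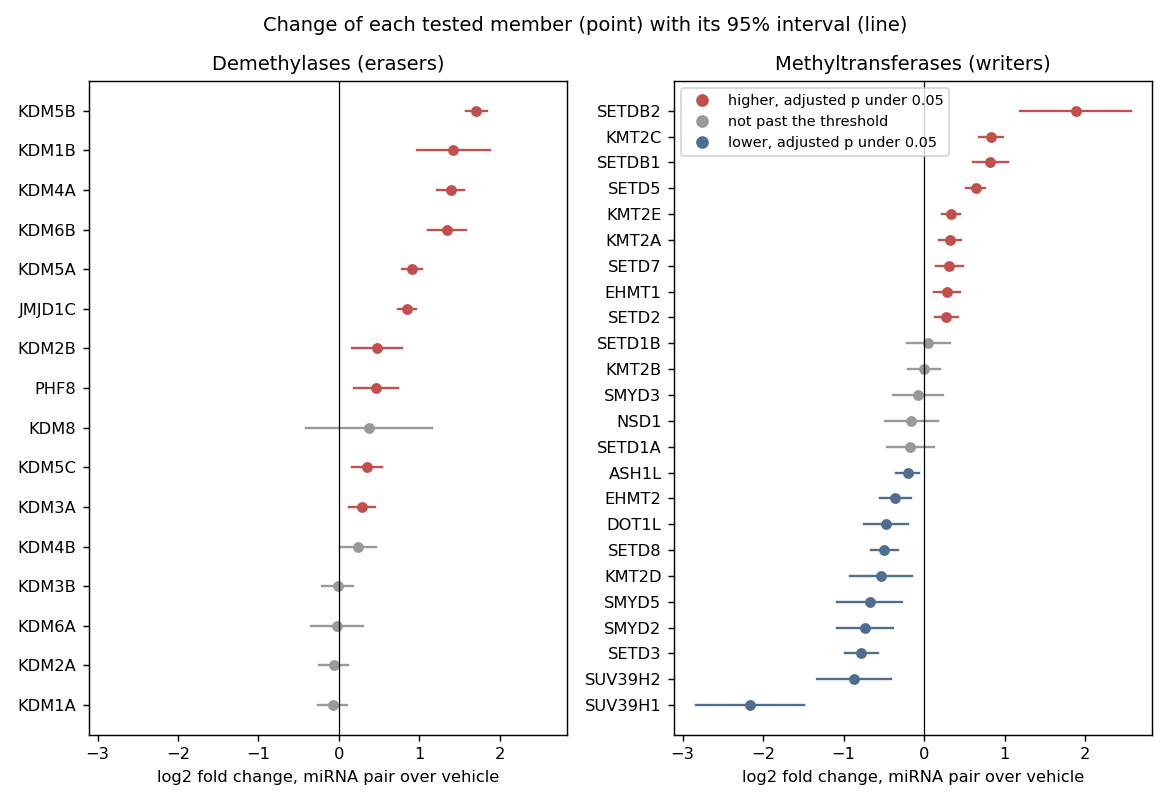
Log2 fold change of each tested member, miRNA pair over vehicle (horizontal axis), with erasers in the left panel and writers in the right; points are estimates, lines 95% intervals and colours the calls. The erasers run from -0.08 for KDM1A to 1.71 for KDM5B with 0 called lower, and the writers from -2.16 for SUV39H1 to 1.88 for SETDB2.

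Transcript composition differed between the members that moved up and down. The 10 members that fell had a median GC content of 54.2% and a median transcript length of 3114 bases, and the 19 that rose had 45% and 6713 bases. GC content was taken from the longest transcript of any type and length from the longest coding transcript. These differ for some members, such as KDM3A (8741 and 4928 bases). Over all tested protein-coding genes the medians were 47.9% and 3395 bases for those that fell and 47.7% and 3703 bases for those that rose. A correction made in each library used the GC content and length of the longest transcript of any type. After that correction 9 erasers rose and 1 fell, and 6 writers rose and 10 fell. KDM3A (adjusted p = 0.151), SETD2 (0.108), SETD7 (0.0735) and EHMT1 (0.114) lost their calls, and KDM2A passed as lower (log2 fold change -0.20, adjusted p = 0.0364, edgeR).

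H3K4 erasers. The KDM5 enzymes remove di- and trimethylation from H3K4, the mark of active promoters. All 3 tested rose, where 33.4% of all tested genes were called higher. KDM5B, also known as PLU-1 and studied in cancer as a brake on differentiation, measured 342, 337, 377 and 345 CPM in miRNA libraries and 99.1, 115, 114 and 98.0 CPM in vehicle libraries. Every miRNA library lay above every vehicle library, for a 3.27-fold rise (log2 fold change 1.71, SE 0.07, adjusted p = 3.41e-31). The 3′ UTR of KDM5B holds a miR-449a word, and whether that site acts was not tested. KDM5A, first found as a partner of the retinoblastoma protein, measured 295, 279, 287 and 277 CPM in miRNA libraries and 147, 149, 155 and 154 CPM in vehicle libraries. The groups were far apart, with a 1.88-fold rise (adjusted p = 7.98e-20). KDM5C, encoded on the X chromosome, rose 1.27-fold, with 70.3 ± 3.91 CPM in miRNA libraries and 55.3 ± 2.65 CPM in vehicle libraries (SD, n = 4 each, adjusted p = 0.000851).

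The flavin-dependent KDM1 enzymes, which act on mono- and dimethylated H3K4, behaved differently from each other. KDM1B, the LSD2 gene, measured 16.3, 11.8, 21.3 and 14.8 CPM in miRNA libraries and 4.60, 5.70, 4.72 and 8.04 CPM in vehicle libraries. It rose 2.68-fold (log2 fold change 1.42, SE 0.22, adjusted p = 1.38e-07) without overlap, from a low level. KDM1A, the LSD1 gene and the catalytic core of the CoREST repressor, measured 81.0 ± 4.92 CPM in miRNA libraries and 85.7 ± 10.5 CPM in vehicle libraries. Its libraries overlapped, and the 95% interval of its log2 fold change ran from -0.25 to 0.10 (adjusted p = 0.452).

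H3K27 erasers. KDM6B and KDM6A remove di- and trimethylation from H3K27, the mark laid down by Polycomb repressive complex 2. KDM6B, the JMJD3 gene, which is known as an inducible gene of stress and inflammation, measured 58.4, 64.0, 48.9 and 65.0 CPM in miRNA libraries and 22.6, 24.3, 23.4 and 23.1 CPM in vehicle libraries. The groups of KDM6B were far apart, with a tight vehicle group, and the rise was 2.54-fold (log2 fold change 1.34, SE 0.12, adjusted p = 1.19e-15). KDM6A, the UTX gene, measured 17.0, 16.03, 22.0 and 16.7 CPM in miRNA libraries and 17.6, 16.3, 21.3 and 16.1 CPM in vehicle libraries. The ranges of KDM6A overlapped almost wholly, with a 95% interval of the log2 fold change from -0.34 to 0.30. On the writer side of this mark, EZH2, the main H3K27 methyltransferase, fell 3.12-fold and EZH1, its paralog, rose 2.12-fold (adjusted p = 3.07e-29 and 1.28e-10, edgeR).

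H3K9 and H3K36 erasers. KDM4A, the JMJD2A gene, which removes trimethylation from both H3K9 and H3K36, measured 143, 148, 178 and 151 CPM in miRNA libraries and 59.8, 56.2, 60.0 and 59.3 CPM in vehicle libraries. Its rise was 2.62-fold (log2 fold change 1.39, SE 0.08, adjusted p = 2.13e-22), with the groups well apart. KDM4B, its paralog, measured 47.6, 45.0, 46.8 and 43.5 CPM in miRNA libraries and 48.5, 33.4, 37.7 and 38.2 CPM in vehicle libraries. It did not pass (log2 fold change 0.24, 95% interval 0.01 to 0.46, adjusted p = 0.056), and vehicle replicate 1 lay above every miRNA library. Without that library KDM4B passed as higher (log2 fold change 0.32, adjusted p = 0.0132, edgeR), and it also passed without miRNA replicate 4 (0.26, adjusted p = 0.045). It did not pass without vehicle replicate 2 (0.16, adjusted p = 0.23) or vehicle replicate 3 (0.21, adjusted p = 0.129). Leaving out miRNA replicate 1, 2 or 3 did not bring it past the threshold either (adjusted p = 0.125, 0.0723 and 0.0746). The call depended on the scaling and tool as well, with adjusted p = 0.00335 by library size alone, 0.0202 by upper-quartile scaling, 0.0457 by RLE scaling and 0.0369 by limma-voom. KDM4B did not pass by DESeq2 (adjusted p = 0.0829), nor by edgeR with no filter (0.0621) or a filter of 1 CPM in 4 libraries (0.0631).

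JMJD1C, a JmjC protein of the KDM3 family whose activity on H3K9 is debated, had the highest CPM of the erasers. It measured 653, 578, 602 and 588 CPM in miRNA libraries and 359, 351, 326 and 316 CPM in vehicle libraries, a 1.80-fold rise (adjusted p = 3.68e-20) without overlap. KDM3A, an H3K9 mono- and dimethyl eraser induced by hypoxia, rose 1.22-fold, with 97.6 ± 3.79 CPM in miRNA libraries and 80.5 ± 2.48 CPM in vehicle libraries (SD, n = 4 each, adjusted p = 0.0019). KDM3B, its close paralog, measured 55.0 ± 5.10 CPM in miRNA libraries and 56.0 ± 2.70 CPM in vehicle libraries and did not pass (95% interval of the log2 fold change -0.21 to 0.18). PHF8, which acts on H3K9 and on monomethylated H4K20, rose 1.38-fold, with 28.7 ± 1.70 CPM in miRNA libraries and 20.8 ± 1.57 CPM in vehicle libraries (adjusted p = 0.00227).

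Of the KDM2 enzymes, which remove H3K36 methylation at CpG islands, KDM2B rose and KDM2A did not pass. KDM2B, which also brings a variant Polycomb complex to CpG islands, measured 20.4, 24.4, 27.2 and 20.3 CPM in miRNA libraries and 15.5, 19.16, 14.6 and 16.8 CPM in vehicle libraries, 1.39-fold higher (adjusted p = 0.0062). KDM2A measured 74.8 ± 6.09 CPM in miRNA libraries and 78.4 ± 6.02 CPM in vehicle libraries, with a 95% interval of the log2 fold change from -0.24 to 0.12. KDM8, a JmjC protein first described as an H3K36 eraser, was scarce, at 2.94 ± 0.816 CPM in miRNA libraries and 2.19 ± 0.644 CPM in vehicle libraries. It did not pass, and the 95% interval of its log2 fold change (-0.41 to 1.16) is too wide to place it.

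**Figure D2:**
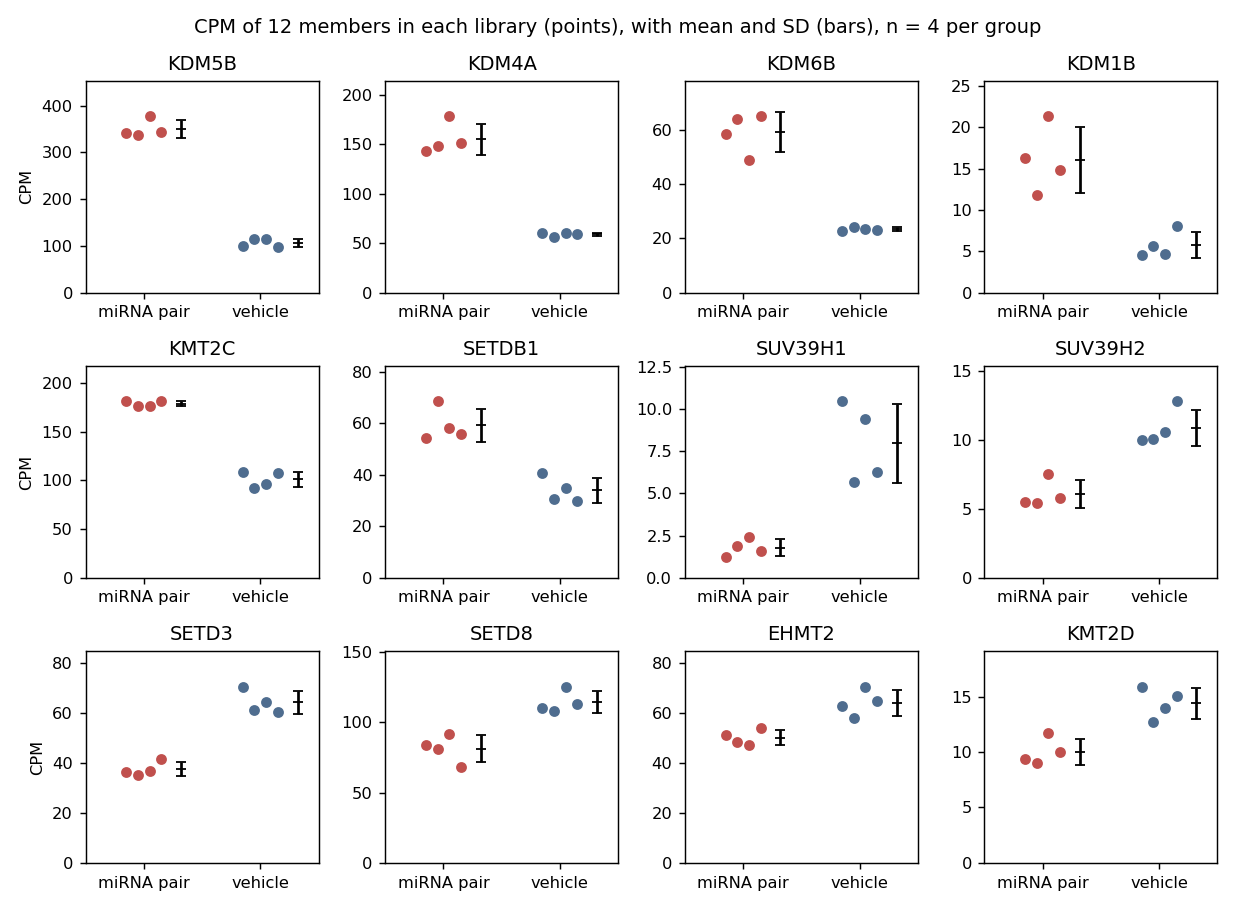
CPM (vertical axes, from 0) of 12 members in each of the 4 miRNA pair libraries and the 4 vehicle libraries; points are libraries and bars mean and SD. The 12 were picked among called members whose groups do not overlap, so the absence of overlap here follows from the choice. Of all tested genes 58.9% showed no overlap. Levels run from SUV39H1 at 1.24 to 2.41 CPM in miRNA libraries and 5.70 to 10.5 CPM in vehicle libraries to KDM5B at 337 to 377 CPM and 98.0 to 115 CPM.

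H3K9 writers. All 6 H3K9 writers were called, 3 as higher and 3 as lower. Calls were common, at 33.4% higher and 34% lower of all tested genes, so this count says little about H3K9 writers as a group. SUV39H1, the enzyme of trimethylated H3K9 in constitutive heterochromatin, measured 1.24, 1.88, 2.41 and 1.61 CPM in miRNA libraries and 10.5, 5.70, 9.43 and 6.28 CPM in vehicle libraries. Its fall was 4.48-fold (log2 fold change -2.16, SE 0.34, adjusted p = 9.78e-08) and rests on 30 counts over the miRNA libraries and 114 over the vehicle libraries. SUV39H2, its paralog, measured 5.50, 5.46, 7.57 and 5.79 CPM in miRNA libraries and 10.04, 10.1, 10.6 and 12.8 CPM in vehicle libraries, a 1.83-fold fall (adjusted p = 0.000717). EHMT2, the G9a gene, which makes dimethylated H3K9 in euchromatin, measured 51.3, 48.6, 47.2 and 54.1 CPM in miRNA libraries and 62.8, 58.0, 70.7 and 65.1 CPM in vehicle libraries. It fell 1.28-fold (adjusted p = 0.00112), with a narrow gap between the groups, and lost the call when scaled by library size alone (log2 fold change -0.22, adjusted p = 0.0542).

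The H3K9 writers that rose were SETDB1, SETDB2 and EHMT1. SETDB1, the enzyme recruited by KRAB zinc finger proteins and TRIM28 to silence retroelements, measured 54.3, 68.6, 58.2 and 56.0 CPM in miRNA libraries and 40.6, 30.8, 35.0 and 29.9 CPM in vehicle libraries. This was a 1.77-fold rise (log2 fold change 0.82, SE 0.11, adjusted p = 2.63e-09). SETDB2 measured 7.99, 5.46, 6.54 and 6.44 CPM in miRNA libraries and 1.67, 2.07, 1.12 and 2.26 CPM in vehicle libraries, 3.69-fold higher (adjusted p = 2.8e-06) on 116 counts over the miRNA libraries and 26 over the vehicle libraries. SETDB2 is known as an interferon-induced gene, and its 3′ UTR holds the longer form of the miR-340-5p word shown above. EHMT1, the partner of EHMT2 in the G9a complex, rose 1.22-fold, with 112 ± 4.68 CPM in miRNA libraries and 92.3 ± 8.75 CPM in vehicle libraries (adjusted p = 0.00179).

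H3K4 writers. The 6 catalytic subunits of the COMPASS-type complexes gave 2 rises and 1 fall, where 33.4% of all tested genes rose and 34% fell. KMT2C, the MLL3 gene, which monomethylates H3K4 at enhancers, measured 181, 177, 177 and 181 CPM in miRNA libraries and 108, 91.7, 96.3 and 107 CPM in vehicle libraries. The 1.78-fold rise (log2 fold change 0.83, SE 0.07, adjusted p = 1.47e-15) had little spread among miRNA libraries. KMT2D, the MLL4 gene, which acts on the same enhancers, measured 9.41, 9.04, 11.7 and 9.98 CPM in miRNA libraries and 15.9, 12.7, 13.9 and 15.1 CPM in vehicle libraries. It fell 1.45-fold (log2 fold change -0.53, SE 0.19, adjusted p = 0.0122), a call that scaling by library size alone removed (log2 fold change -0.40, adjusted p = 0.0653), and it is the one member with the words of both microRNAs. KMT2A, the MLL1 gene, measured 239, 241, 263 and 230.1 CPM in miRNA libraries and 194, 164, 206 and 214 CPM in vehicle libraries, 1.25-fold higher (adjusted p = 3.93e-05). KMT2B (53.6 ± 3.83 CPM in miRNA libraries, 53.6 ± 5.08 CPM in vehicle libraries), SETD1A (20.03 ± 2.03 CPM in miRNA libraries, 22.6 ± 2.31 CPM in vehicle libraries) and SETD1B (27.4 ± 2.31 CPM in miRNA libraries, 25.9 ± 2.83 CPM in vehicle libraries) did not pass. Their 95% intervals ran from -0.20 to 0.20, from -0.46 to 0.12 and from -0.21 to 0.32 log2 units.

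H3K36, H3K79 and H4K20 writers. SETD2, the enzyme of trimethylated H3K36 on transcribed genes, rose 1.21-fold, with 147, 139, 153 and 153 CPM in miRNA libraries and 115, 127, 121 and 123 CPM in vehicle libraries (adjusted p = 0.000573). ASH1L, a dimethyl H3K36 writer, fell 1.15-fold, with 137, 137, 128 and 131 CPM in miRNA libraries and 149, 143, 160.3 and 163 CPM in vehicle libraries (adjusted p = 0.00884). That small change lost its call with library size alone (log2 fold change -0.07, adjusted p = 0.438). NSD1, another dimethyl H3K36 writer, measured 15.9 ± 1.51 CPM in miRNA libraries and 17.4 ± 2.47 CPM in vehicle libraries and did not pass (95% interval -0.49 to 0.17). DOT1L, the H3K79 writer, which has no SET domain, measured 24.3, 23.0, 27.2 and 19.96 CPM in miRNA libraries and 31.0, 31.3, 39.5 and 28.4 CPM in vehicle libraries, 1.39-fold lower (adjusted p = 0.00164). SETD8, also named KMT5A, which monomethylates H4K20 in dividing cells, measured 83.8, 81.4, 91.6 and 68.2 CPM in miRNA libraries and 110.0, 108, 126 and 113 CPM in vehicle libraries. Its fall was 1.41-fold (log2 fold change -0.49, SE 0.08, adjusted p = 7.45e-07), and the groups did not overlap. SUV39H1, SUV39H2 and SETD8 fell in libraries in which all 10 proliferation markers fell, and the part of that shift in these changes was not tested.

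Writers with other or debated substrates moved both ways. SETD3, which methylates a histidine of actin, measured 36.6, 35.1, 36.8 and 41.5 CPM in miRNA libraries and 70.7, 61.4, 64.7 and 60.5 CPM in vehicle libraries. SETD3 fell 1.72-fold (log2 fold change -0.78, SE 0.10, adjusted p = 1.31e-09), the smallest adjusted p among the falls, and holds a miR-340-5p word. SMYD2, which methylates p53 and other proteins beside histones, measured 9.59, 13.99, 9.64 and 13.5 CPM in miRNA libraries and 21.8, 19.4, 19.3 and 18.3 CPM in vehicle libraries, 1.67-fold lower (adjusted p = 0.000187). The miRNA libraries of SMYD2 split into a lower and a higher couple, both under the vehicle range. SMYD5 fell 1.60-fold, with 8.52 ± 0.882 CPM in miRNA libraries and 13.7 ± 1.60 CPM in vehicle libraries (adjusted p = 0.00259). SMYD3, a cytoplasmic and nuclear methyltransferase of the same family, measured 19.4 ± 2.29 CPM in miRNA libraries and 20.7 ± 4.15 CPM in vehicle libraries and did not pass (95% interval -0.39 to 0.23).

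SETD5, a SET-domain protein whose enzyme activity is debated, measured 443, 427, 465 and 383 CPM in miRNA libraries and 293, 272, 255 and 286 CPM in vehicle libraries, 1.56-fold higher (adjusted p = 2.93e-14). KMT2E, the MLL5 gene, for which no histone methylation is established, measured 444, 413, 470 and 408 CPM in miRNA libraries and 348, 337, 355 and 335 CPM in vehicle libraries, 1.26-fold higher (adjusted p = 7.58e-07). SETD7, which methylates H3K4 and many other proteins, measured 109.9, 91.1, 95.02 and 94.6 CPM in miRNA libraries and 81.2, 83.4, 75.7 and 75.9 CPM in vehicle libraries, 1.24-fold higher (adjusted p = 0.001). All 3 were without overlap between groups, as were 29.2% of all tested genes in the higher direction.

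Levels between genes were compared per kb of the longest coding transcript. In miRNA libraries the highest levels were those of JMJD1C (69.8 CPM per kb), KMT2E (63.1) and SETD5 (62.9), and in vehicle libraries those of KMT2E (50.04 CPM per kb), SETD5 (40.5) and JMJD1C (39.0). KDM4A and KDM5B stood 4th and 5th of the 40 tested members in miRNA libraries and 13th and 19th in vehicle libraries. SETD3 stood 15th in miRNA libraries and 6th in vehicle libraries. At the low end KMT2D had 0.517 CPM per kb in miRNA libraries and 0.741 in vehicle libraries, and SUV39H1 had 0.599 and 2.68. Summed over the tested erasers the level was 276 ± 8.21 CPM per kb in miRNA libraries and 172 ± 5.41 in vehicle libraries (SD, n = 4 each). Summed over the writers it was 324 ± 12.3 and 303 ± 7.59, with overlapping libraries. The ratio of the eraser sum to the writer sum, which does not depend on how libraries are scaled to each other, was 0.854, 0.844, 0.841 and 0.864 in miRNA libraries and 0.563, 0.596, 0.556 and 0.553 in vehicle libraries. These sums are given as a description without a test, and a few abundant genes weigh heavily in them. Besides JMJD1C, the eraser sum held KDM4A (34.6 in miRNA libraries and 13.1 in vehicle libraries) and KDM5B (33.9 and 10.3). In the writer sum KMT2E and SETD5 were the largest terms, and both rose while 10 of the 24 writers fell. For JMJD1C, KMT2E and SETD5 histone activity is debated or not established. Of the 16 erasers 6 did not pass, so the ratio is not a trait of every member.

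**Figure D3:**
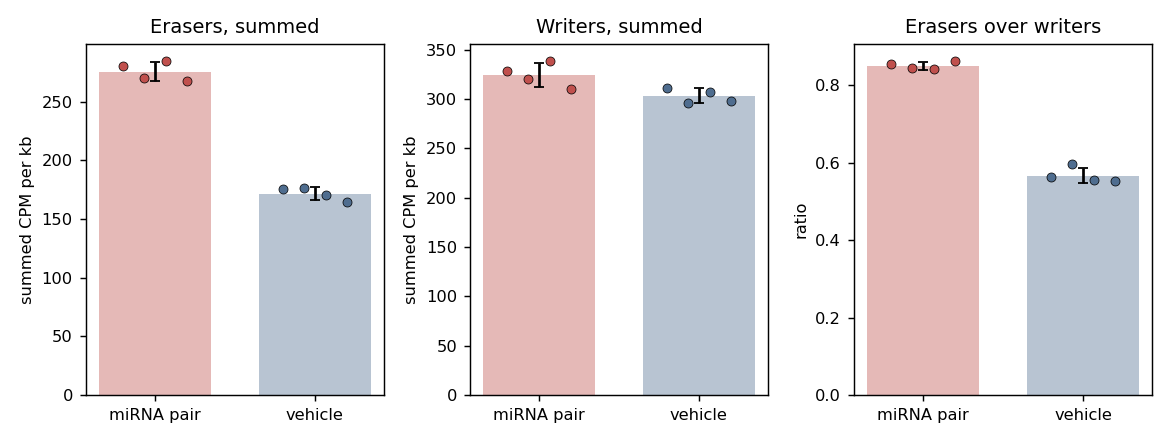
Summed level of the tested erasers and writers in CPM per kb of transcript and the ratio of the sums (vertical axes, from 0), for the 4 miRNA pair and 4 vehicle libraries; bars are means, error bars SD and points libraries. The eraser sums lie at 267 to 285 in miRNA libraries and 164 to 176 in vehicle libraries, while the writer sums overlap.

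**Figure D4:**
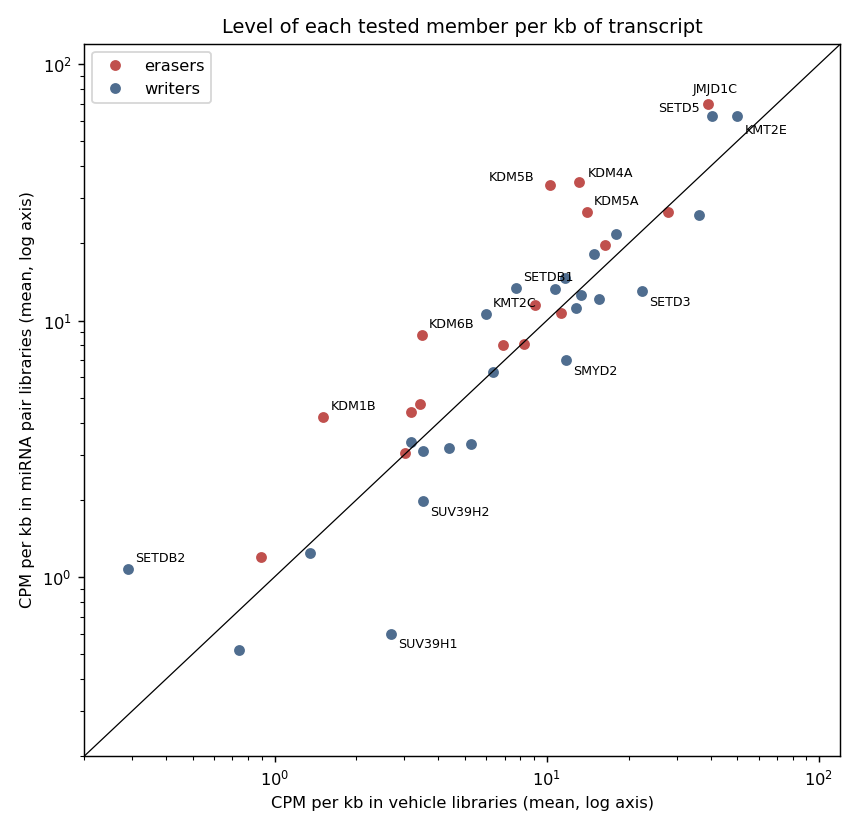
Mean level of each tested member per kb of transcript in vehicle libraries (horizontal, log axis) and in miRNA pair libraries (vertical, log axis), with the line of equal level; each point is 1 gene. KDM5B and KDM4A lie above the line at 33.9 and 34.6 CPM per kb in miRNA libraries, and SUV39H1 lies farthest below it.

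Paralogs were then compared within libraries, since the ratio of a pair of genes in 1 library is free of the scaling. Of 17 pairs fixed by family, the 2 that hold KDM4C could not be compared, and 15 were tested with a two-sided exact permutation test over libraries, adjusted over the 15 pairs. With 4 against 4 libraries the smallest p the test can give is 0.0286. Here it becomes 0.039 after adjustment because 11 of the 15 pairs reach it. The call of each pair thus depends on the other pairs, and the KDM5 pairs share genes. In 11 pairs the groups did not overlap and the balance shifted at that value. The share of arbitrary gene pairs that would shift was not computed, and with 58.9% of single genes not overlapping the count is no statement about paralogs as such. Shifts of over 2-fold were found in KDM1A/KDM1B (log2 ratio 2.33 in miRNA libraries and 3.81 in vehicle libraries), KDM5B/KDM5C (2.31 and 0.94), KMT2C/KMT2D (4.10 and 2.77), KDM6A/KDM6B (-1.69 and -0.39), KDM4A/KDM4B (1.75 and 0.58) and SUV39H1/SUV39H2 (-1.54 and -0.46). KDM5A outweighed KDM5B in vehicle libraries and not in miRNA libraries, with log2 CPM ratios of -0.30 ± 0.08 in miRNA libraries and 0.51 ± 0.12 in vehicle libraries (SD, n = 4 each, not corrected for length).

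Within the G9a complex EHMT1 gained on EHMT2, with a log2 ratio of 1.14 in miRNA libraries and 0.52 in vehicle libraries, a difference of 0.62 (95% interval 0.39 to 0.86). Smaller shifts at the same p were found for KDM2A/KDM2B (difference -0.53), KDM3A/KDM3B (0.31) and KDM5A/KDM5C (0.57). The pairs that did not pass were KMT2A/KMT2B (difference 0.33, 95% interval 0.03 to 0.63, adjusted p = 0.0659, exact test), SETDB1/SETDB2 (-0.86, interval -1.59 to -0.14, adjusted p = 0.0659, exact test), SMYD2/SMYD3 (-0.67, interval -1.29 to -0.05, adjusted p = 0.0918, exact test) and SETD1A/SETD1B (-0.26, interval -0.61 to 0.10, adjusted p = 0.143, exact test). These intervals are wide, so the 4 pairs are not shown to keep their balance. With limma on the same ratios KMT2A/KMT2B (adjusted p = 0.0279), SETDB1/SETDB2 (0.0103) and SMYD2/SMYD3 (0.0152) passed.

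**Figure D5:**
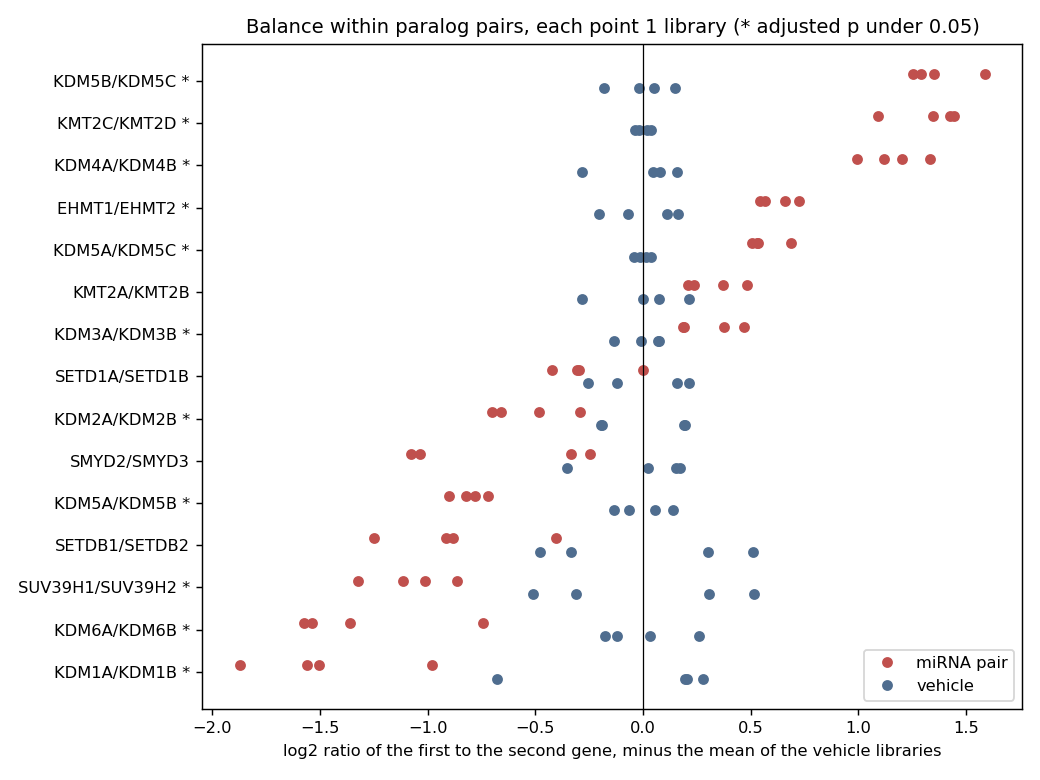
Log2 ratio of the first to the second gene of each of 15 paralog pairs in each library, shown minus the mean of the vehicle libraries (horizontal axis); upper points are the 4 miRNA pair libraries and lower points the 4 vehicle libraries. The 11 starred pairs have adjusted p = 0.039 by the exact test and no overlap between groups, with KDM5B/KDM5C shifted farthest up (1.37) and KDM1A/KDM1B farthest down (-1.48).

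Seed words and direction were set side by side. Of the 5 members with a miR-340-5p word, KMT2D, SETD3, SETD8 and ASH1L fell and SETDB2 rose. This split holds for the 7-base word alone, since of 27 tested members with the 6-base form 15 rose and 6 fell, and over all annotated 3′ UTRs 3 of 8 rose and 4 fell. Over all tested genes 33.8% of those with the word fell, against 33.7% of those without it. Of the 5 tested members with a miR-449a word, KMT2D fell, KDM5B rose, and KDM8, NSD1 and SETD1B did not pass. Over all tested genes 41.1% of those with that word fell, against 32.1% without, and the median log2 fold changes were -0.13 and 0.06. Among the 10 members that fell, 4 held a word of either microRNA and 6, SUV39H1, SUV39H2, EHMT2, DOT1L, SMYD2 and SMYD5, held neither. Genes with a word also have longer 3′ UTRs (median 2547 bases with and 1221 without the miR-449a word), so these shares are not corrected for length.

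Related genes were read from lists drawn up by function, also with earlier results of these data known. Their counts stand against the 33.4% of all tested genes called higher and 34% called lower, and several lists lie near that background. Of 13 other lysine methyltransferases tested, 5 rose (EZH1, SUV420H1, PRDM16, WHSC1L1 and SETD4) and 3 fell (EZH2, WHSC1 and SMYD1). WHSC1, the NSD2 gene, which dimethylates H3K36, fell 4.90-fold (adjusted p = 1.19e-28), with 34.7 ± 6.36 CPM in miRNA libraries and 169.1 ± 17.0 CPM in vehicle libraries. SMYD1, a muscle-specific member of the SMYD family, fell 5.09-fold, with 6.98 ± 1.79 CPM in miRNA libraries and 34.3 ± 3.31 CPM in vehicle libraries (adjusted p = 1.11e-18). Of 10 other JmjC and related genes, 3 rose (KDM7A, C14orf169 and RSBN1) and 2 fell (JARID2 and KDM4D). Their shares were 30% higher and 20% lower, with a median log2 fold change of 0.11. The excess of rises among the 16 tested erasers (62.5%, median 0.42) was thus not seen in this list. KDM7A, an eraser of H3K9 and H3K27 methylation, rose 4.76-fold, with 30.8 ± 4.16 CPM in miRNA libraries and 6.33 ± 1.55 CPM in vehicle libraries, and JARID2, a catalytically inactive JmjC partner of Polycomb, fell 1.69-fold (adjusted p = 6.97e-17 and 6.34e-10, edgeR). KDM4D, a germline-rich relative of KDM4A, fell 2.03-fold (adjusted p = 0.0155) at a low level of 1.77 ± 1.22 CPM in miRNA libraries and 4.10 ± 0.678 CPM in vehicle libraries, and its groups overlapped.

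Of 14 tested COMPASS and MLL complex subunits, 0 rose, 7 fell and 7 did not pass (median log2 fold change -0.35). WDR5, the core subunit that holds the SET domain in its active form, fell 2.03-fold, with 40.8 ± 1.94 CPM in miRNA libraries and 83.4 ± 3.44 CPM in vehicle libraries (adjusted p = 1.37e-14). HCFC1, a subunit shared by several of these complexes, fell 2.06-fold, PAXIP1, of the KMT2C and KMT2D complexes, 1.88-fold, and PSIP1, a chromatin tether of KMT2A, 1.53-fold. In the list of HP1, SETDB1 and G9a partners 1 of 12 rose (ZNF644) and 5 fell (CBX5, TRIM28, WIZ, CBX3 and FAM208A). CBX5, the HP1 alpha protein that binds methylated H3K9, fell 2.55-fold, TRIM28, the adaptor of SETDB1, 2.51-fold, and WIZ, a zinc finger partner of EHMT2, 2.03-fold, whereas SETDB1 itself rose.

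Of 15 tested partners of KDM1A in the CoREST and NuRD complexes, 4 rose (ZMYM2, PHF21A, RCOR2 and RCOR3) and 9 fell. HDAC1, the deacetylase that works beside KDM1A, measured 85.4 ± 4.56 CPM in miRNA libraries and 193 ± 18.2 CPM in vehicle libraries, and GSE1 fell 2.57-fold, while ZMYM2 rose 2.32-fold. Of 12 partners of KDM2B and KDM5 enzymes, 4 rose (GATAD1, SKP1, SIN3B and RNF2) and 2 fell (USP7 and BCORL1), with GATAD1, a reader that joins KDM5A at promoters, 2.50-fold higher. Of 11 tested partners of DOT1L and the H3K36 writers, 3 rose (IWS1, AFF4 and MRFAP1) and 4 fell (MLLT1, SUPT6H, AFF1 and ZMYND11), with MLLT1, an elongation factor that binds DOT1L, 2.28-fold lower and IWS1, which helps SETD2 act on transcribed genes, 1.67-fold higher. Of 22 tested genes of S-adenosylmethionine and 2-oxoglutarate supply, 11 fell, 6 rose and 5 did not pass. AHCY, which clears S-adenosylhomocysteine, the product that inhibits methyltransferases, fell 2.97-fold. IDH3A, a mitochondrial source of 2-oxoglutarate, fell 3.15-fold and MTHFD1, of the folate cycle, 2.53-fold.

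Counting limits some of these values. The strand setting of the counting is not given in the sources used here, and exons of 20 members overlap those of another annotated gene. In 19 members such a neighbour lies on the opposite strand, and in 5 on the same strand. Whether reads of opposite-strand neighbours were kept apart is not known, and strand does not resolve an overlap on the same strand. Members with an opposite-strand neighbour include KDM4A and JMJD1C among the rises, with antisense genes of the same name, and SUV39H1, SUV39H2, EHMT2 and DOT1L among the falls. KDM4A and KMT2A also overlap a protein-coding gene on the same strand.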

How the data were processed

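Libraries were prepared with a stranded mRNA kit, per the labels' protocols. The authors deposited raw counts of reads for each gene symbol in every library. GRCh38 and the tools TopHat2 2.0.13, SAMtools 0.1.19.24, HTSeq 0.5.3p3 and DESeq2 appear in the submitters' processing notes, with no role given. Neither the annotation nor the strand setting of the counting is given in the sources used here. Columns were tied to samples by the library code in the sample descriptions. Replicates differed by more than sampling noise (chi-square per gene at least 2.21), so each library was counted as 1 sample.

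filterByExpr (minimum count 10, minimum total 15) kept 12366 genes with 99.5% of counts. After TMM scaling, edgeR 4.0.16 (R 4.3.3) fitted a robust quasi-likelihood model on group, and two-sided p-values were adjusted by Benjamini-Hochberg over all tested genes, with calls at 0.05. The SE is the absolute log2 fold change over the square root of F, and intervals are 95%. Precision is lowest for the scarcest members. TMM assumes that most genes do not change, whereas 67.3% of tested genes were called here, 33.4% higher and 34% lower. Small changes therefore depend on the scaling. Pair ratios used log2 CPM with prior count 2, and their intervals a pooled SD with 6 degrees of freedom. Levels per kb used the longest protein-coding transcript. Symbols were matched to GENCODE 29 (17610 by name, 501 through another symbol, 4697 not matched), and 3′ UTRs of at least 50 bases were searched. The scripts were tested on simulated data.

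All 41 members are named, and from each other list up to 4 called genes with the smallest adjusted p and a mean of at least 1 CPM, or those needed to state a count of 5 or fewer. Members and lists were chosen with earlier results of these data known. Alternatives were DESeq2 1.42.0, limma-voom (limma 3.58.1), other scalings and filters, each library left out, a replicate block, a threshold of 0.01, removal of mitochondrially encoded genes, a correction for GC content and length (splines with 5 degrees of freedom), other prior counts for pairs, and other forms of the seed words.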

Additional observations from a re-analysis of the deposited data

Results flagged for a closer look

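In 2 of the 80 groups of 4 libraries examined (40 members in each of 2 groups), 1 library stood far from the other 3, where chance gives about 4. KDM6A measured 22.0 CPM in miRNA replicate 3, against 16.03 to 17.0 CPM in the other miRNA libraries. SUV39H2 measured 7.57 CPM in miRNA replicate 3, against 5.46 to 5.79 CPM in the other miRNA libraries, and all 4 lay under the vehicle libraries.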

How the results depend on the processing

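Of the 40 tested members, 25 kept their direction and their side of the threshold under every alternative run, and 15 changed under at least 1. Leaving out each library in turn gave 19 to 20 members higher and 10 lower, and gave medians of -0.15 to -0.063 for writers and 0.39 to 0.49 for erasers. Scaling by library size alone shifted the median of all genes by 0.14 on the log2 scale, with 4890 genes higher and 3453 lower, against 4125 and 4199 with TMM. Under it the writers' median was 0.021 and the erasers' 0.56, with 20 members higher and 7 lower. The GC and length correction gave a writers' median of -0.24 and 1 eraser called lower, where the uncorrected fit gave -0.12 and 0. The cause was not tested.

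Changes of direction were confined to 7 members that passed no threshold in the TMM fit. With library size alone log2 fold changes were 0.064 for KDM1A, 0.075 for KDM2A, 0.12 for KDM3B, 0.12 for KDM6A, 0.14 for KMT2B and 0.062 for SMYD3. Upper-quartile scaling gave 0.034 for KDM3B, 0.031 for KDM6A and 0.049 for KMT2B. With no filter KDM3B was at 0.0004017 and KMT2B at 0.016. KMT2B was also at 0.0098 with RLE scaling, 0.0098 with DESeq2, 0.0015 with limma-voom and 0.0019 without mitochondrially encoded genes. The GC and length correction put SETD1B at -0.091 and SMYD3 at 0.00046. With libraries left out in turn, KDM1A ran from -0.14 to 0.000603, KDM3B from -0.077 to 0.0296, KDM6A from -0.11 to 0.089, KMT2B from -0.059 to 0.0404 and SMYD3 from -0.16 to 0.055.

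Samples with the same replicate number correlated by 0.0135 to 0.0555 in their deviations from the group means. Each miRNA library correlated best with the vehicle library of its own number, but the margins were small. For replicate 4 the values were 0.0135 and, for the next best vehicle library, 0.0128, and for replicate 1 they were 0.0204 and 0.0114. The best match of each vehicle library was not examined. This is at most a weak hint from the data and not from the design. With the replicate number as a block, 4102 genes were higher and 4171 lower, and 19 members were higher and 10 lower. The replicate block put KDM6A at 0.0091 and KMT2B at 0.00095. For paralog pairs the block was fitted with limma, and 14 pairs passed both with the replicate block and without it, so that the move away from the 11 of the exact test came with the change of test. SETDB1/SETDB2 also passed by the exact test with prior count 0.5 (adjusted p = 0.0357). Leaving out a library for the exact test of pairs was not run.

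Seed word counts depended on the form: the 8-base form was found in 2 members for miR-449a and 1 for miR-340-5p, and the 6-base form in 13 and 28 members. KDM4C and KDM8 were too scarce for a statement, and SUV39H1 and SETDB2 rest on few counts.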
